A study of Homo sapiens with 14 samples.

Results

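The unfolded protein response and the ATF4 response were described in LNCaP cells through 40 genes, and all 40 were measured among the 19775 genes of the arrays. A gene was taken if at least 1 probe set was annotated to its symbol and to no other, and the probe set with the highest mean signal over all arrays stood for it. The 40 genes had 86 such probe sets, 26 genes had several and 14 had 1. By role they formed an ATF4 arm of 23 genes, an endoplasmic reticulum (ER) folding arm of 10 genes, 3 genes of ER degradation and 4 sensors or their transcription factors. The genes were listed by symbol, and the mean signal picked only the probe set. The list was, however, chosen with earlier results of these data known, so counts over it are a description and not a test.

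The ER folds secreted and membrane proteins, and a secretory epithelial cell such as a prostate cell carries a large load of them. When unfolded proteins build up, the sensors EIF2AK3 (PERK), ERN1 (IRE1) and ATF6 are activated. ERN1 splices the mRNA of XBP1, and XBP1 and ATF6 then turn on chaperones and the machinery that carries misfolded proteins out for degradation. EIF2AK3, like the kinases that sense amino acid shortage, haem or viral RNA, phosphorylates the initiation factor eIF2, which lowers translation in general but raises translation of ATF4. ATF4 with its partners CEBPB and CEBPG turns on genes of amino acid synthesis, amino acid uptake and tRNA charging, and with DDIT3 (CHOP) a set of stress effectors. Array signals read mRNA and say nothing of splicing, cleavage or phosphorylation.

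LNCaP is an androgen-responsive human prostate cancer line, and the study concerned residue T350 of EZH2, the histone H3 methyltransferase of the Polycomb repressive complex PRC2. Each of 7 groups had 2 arrays, 14 in all. In untransfected cells the groups were TSA at 5 uM (trichostatin A, which inhibits histone deacetylases), Roscovitine at 10 uM (which inhibits cyclin-dependent kinases) and the solvent DMSO (0.1%), each for 24 h. Transfected cells carried for 60 h a small interfering RNA: si-EZH2 with an siRNA-resistant plasmid for T350A EZH2, in which alanine replaces the phosphorylated residue (si-EZH2&T350Asr, here T350A add-back), si-EZH2 with the resistant wild-type plasmid (si-EZH2&EZH2sr, here wild-type add-back), si-EZH2 alone, or si-Control. The promoter that drives the plasmids is not stated in the labels. TSA and Roscovitine were both set against the same 2 DMSO arrays, and both add-backs against the same 2 si-EZH2 arrays.

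EZH2 itself had signals of 806 and 826 in the T350A add-back, 839 and 822 in the wild-type add-back, 392 and 393 in si-EZH2 and 1161 and 1221 in si-Control. Array medians lay between 107.25 and 117.03, and the number of arrays limits the precision. Of 10 LNCaP markers 8 were measured, each with a mean signal over 200. In Roscovitine and in the T350A add-back, replicate 2 departed from replicate 1 in a similar way. Replicate differences in these groups correlated at 0.702 across 13424 genes, which are not independent, while for all other pairs of groups the correlation lay between -0.269 and 0.28. The labels do not say whether replicates were separate cultures, so p-values measure only the spread between these samples.

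Log2 differences are given ± SE from 1 limma fit of log2(signal + 16) to the 14 arrays, where n = 2 in each group. A gene is called, and is said to have risen or fallen, where limma's p adjusted by Benjamini-Hochberg over all 19775 genes was under 0.05. Signals belong to 1 probe set and are not compared between genes. In a bulk sample fewer cells of a kind and less RNA per cell cannot be told apart.

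The promoters were searched for known elements of both pathways, and those of a few genes on which the results turn are shown. RefSeq promoters of 300 bases (250 before to 50 after the start, GRCh38.p14) were found for 36 of the 40 genes. NUPR1, SHMT2, SLC7A11 and PDIA3 were not matched. A single promoter stood for each gene, and other starts of a gene were not searched. Both strands were searched for the CEBP-ATF response element of ATF4 and its CEBP partners (TGATGNAA), for the ER stress response element ERSE of ATF6 (CCAAT, any 9 bases, CCACG), for ERSE-II (ATTGG, any base, CCACG) and for the XBP1 and ATF6 element UPRE (TGACGTGG). No matches overlapped each other. The CEBP-ATF element stood in 5 of 20 promoters of the ATF4 arm (CHAC1, ASNS, AARS1, SLC7A1 and SLC3A2, in the last 2 after the start), in 0 of 9 of the ER folding arm and in 3.673% of all 27305 promoters. ERSE stood in 4 of 9 promoters of the ER folding arm (HSPA5, HSP90B1, CALR and CANX), in 0 of 20 of the ATF4 arm and in 0.08057% of all promoters. Of the other 7 genes, XBP1 had an ERSE and HERPUD1 had both a CEBP-ATF element and an ERSE-II. SDF2L1 had the other ERSE-II, a motif found in 0.05493% of all promoters. UPRE matched none of the 36, against 0.7947% of all promoters. A match is a description of letters and not a shown binding site.

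The 250 bases before the start of 7 genes follow, 5′ to 3′ on the strand of the gene, from RefSeq GRCh38.p14, with motif matches in capitals. CHAC1 (chr15:40953221-40953470, plus strand) and ASNS (chr7:97872409-97872658, minus strand) each hold a CEBP-ATF element, at -209 to -202 and at -68 to -61. HSPA5 (chr9:125241344-125241593, minus strand) and CANX (chr5:179698679-179698928, plus strand) hold 1 ERSE each, and HSP90B1 (chr12:103930160-103930409, plus strand) holds 2. XBP1 (chr22:28800570-28800819, minus strand) has its ERSE at -52 to -34. HERPUD1 (chr16:56931892-56932141, plus strand) has the CEBP-ATF element at -176 to -169 and ERSE-II at -117 to -107.
CHAC1: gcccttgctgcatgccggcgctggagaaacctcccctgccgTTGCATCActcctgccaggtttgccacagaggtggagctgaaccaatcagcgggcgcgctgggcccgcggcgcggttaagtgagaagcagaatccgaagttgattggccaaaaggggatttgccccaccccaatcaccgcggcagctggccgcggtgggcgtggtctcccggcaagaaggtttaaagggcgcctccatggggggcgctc
ASNS: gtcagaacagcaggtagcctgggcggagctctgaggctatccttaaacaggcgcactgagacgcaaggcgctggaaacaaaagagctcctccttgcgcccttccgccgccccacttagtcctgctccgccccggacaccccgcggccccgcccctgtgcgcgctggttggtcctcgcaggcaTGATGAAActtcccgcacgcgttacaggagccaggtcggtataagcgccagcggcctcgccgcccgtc
HSPA5: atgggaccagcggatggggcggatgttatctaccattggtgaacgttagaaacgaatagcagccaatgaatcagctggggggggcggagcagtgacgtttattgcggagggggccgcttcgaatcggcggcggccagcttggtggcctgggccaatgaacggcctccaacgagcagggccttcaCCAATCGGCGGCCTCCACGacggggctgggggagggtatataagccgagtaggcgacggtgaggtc
CANX: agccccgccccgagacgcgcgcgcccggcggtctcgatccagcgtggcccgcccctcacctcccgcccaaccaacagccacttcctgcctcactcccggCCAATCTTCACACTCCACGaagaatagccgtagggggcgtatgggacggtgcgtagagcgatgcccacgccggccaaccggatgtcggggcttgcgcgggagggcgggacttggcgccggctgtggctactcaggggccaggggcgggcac
HSP90B1: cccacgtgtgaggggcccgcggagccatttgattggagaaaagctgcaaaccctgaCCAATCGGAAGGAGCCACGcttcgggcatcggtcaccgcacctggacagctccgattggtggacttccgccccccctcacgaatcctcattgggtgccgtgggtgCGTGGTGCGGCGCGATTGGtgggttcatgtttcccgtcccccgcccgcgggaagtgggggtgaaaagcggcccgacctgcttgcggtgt
XBP1: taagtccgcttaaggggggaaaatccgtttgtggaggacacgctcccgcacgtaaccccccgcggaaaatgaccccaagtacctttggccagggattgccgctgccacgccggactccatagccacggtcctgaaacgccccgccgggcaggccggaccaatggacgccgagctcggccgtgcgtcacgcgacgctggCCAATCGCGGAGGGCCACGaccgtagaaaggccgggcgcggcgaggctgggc
HERPUD1: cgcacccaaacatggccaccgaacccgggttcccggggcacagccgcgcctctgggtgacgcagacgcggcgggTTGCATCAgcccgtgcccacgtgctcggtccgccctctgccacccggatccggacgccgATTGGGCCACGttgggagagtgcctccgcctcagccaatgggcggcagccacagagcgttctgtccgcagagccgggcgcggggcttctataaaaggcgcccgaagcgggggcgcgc

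With TSA most of the ATF4 arm fell. Its 4 amino acid transporters and 3 of its 4 amino acid synthesis enzymes were lower, and the stress effectors NUPR1 and TRIB3 dropped far below their DMSO level. In the ER folding arm the protein disulfide isomerases and CANX fell by about the same modest amount, while HSPA5, the central chaperone of the ER, was not called. XBP1 fell and SEL1L, a scaffold of ER degradation, rose. Of the 40 genes, 6 rose, 24 fell and 10 were not called with TSA against DMSO, in a comparison in which 42.1% of all genes were called and 21.5% were called lower. The median log2 difference was -1.0006 over the ATF4 arm (2 rose, 17 fell, 4 not called) and -0.28 over the ER folding arm (2 rose, 5 fell, 3 not called), against 0.0085 over all genes.

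**Figure D1:**
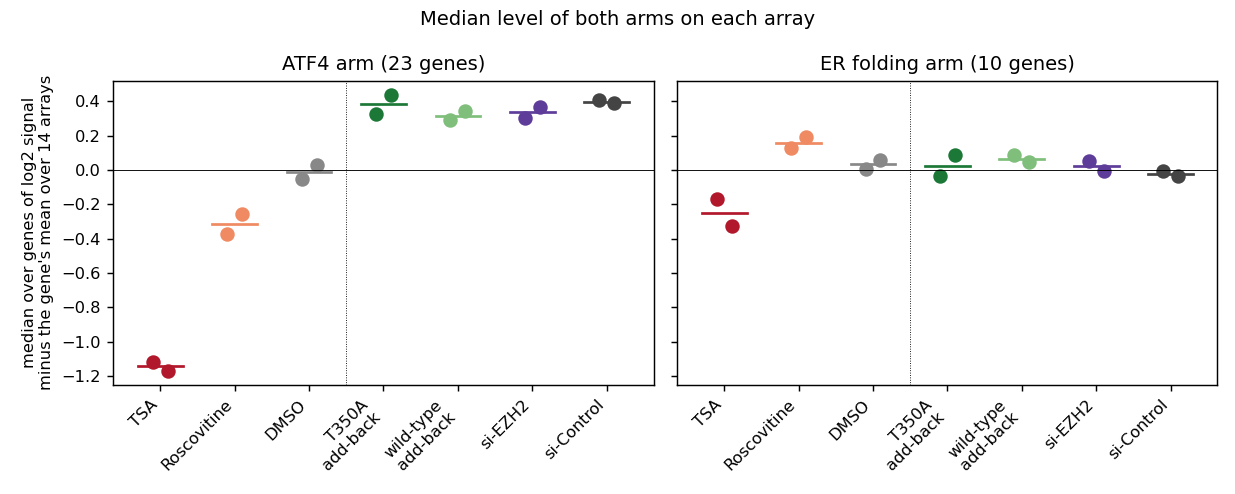
Median over the 23 genes of the ATF4 arm (left) and the 10 genes of the ER folding arm (right) of the log2 signal minus the gene's mean over all 14 arrays. Points are arrays, bars are group means, and the dotted line parts the drug groups from the transfected groups. In the ATF4 arm the TSA arrays lie at -1.117 and -1.1705, against -0.052 and 0.0275 in DMSO; in the ER folding arm they lie at -0.1709 and -0.3249, against 0.0064 and 0.0606.

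ATF4 mRNA itself had signals of 3496 and 3347 in TSA, against 7714 and 7749 in DMSO. The groups did not overlap, and TSA cells held 44.3% of the DMSO level (-1.17 ± 0.07, adjusted p = 9.54e-07). Its partners CEBPB (-1.03 ± 0.09) and CEBPG (-1.39 ± 0.11) fell too. DDIT3, the pro-apoptotic factor that ATF4 induces in ER stress, was at 1199 and 1207 in TSA and 1126 and 1155 in DMSO. The TSA arrays were only slightly the higher, and DDIT3 was not called (0.076 ± 0.08, 95% interval -0.10 to 0.25, adjusted p = 0.510).

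NUPR1, a small chromatin-associated stress protein, had signals of 268 and 217 in TSA, against 4053 and 4227 in DMSO. TSA left 5.86% of it (-4.01 ± 0.10, adjusted p = 6.73e-09), the 17th lowest log2 difference among 19775 genes. TRIB3, a pseudokinase that binds ATF4 and AKT, was at 575 and 578 in TSA and 3906 and 4187 in DMSO (-2.78 ± 0.12, adjusted p = 1.23e-07). A second TRIB3 probe set differed the same way by much less (-0.51), and the mean of both was called at -1.64. STC2, a secreted stress glycoprotein, fell by a similar order: its signals were 378 and 402 in TSA against 1976 and 2052 in DMSO (-2.32 ± 0.09).

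Other effectors differed less. CHAC1, which breaks down glutathione, fell to 554 and 513 in TSA, against 1313 and 1296 in DMSO (-1.27 ± 0.15, adjusted p = 8.97e-05). DDIT4, an inhibitor of mTORC1, fell by 0.57 on the log2 scale. PPP1R15A, the phosphatase subunit that reverses eIF2 phosphorylation, was not called (-0.11 ± 0.16). The lipoprotein receptor VLDLR was the 1 regulator or effector that rose, with 431 and 401 in TSA against 327 and 319.7 in DMSO (0.35 ± 0.12, adjusted p = 0.0370). That call was lost without any 1 of the TSA, DMSO, si-EZH2 or si-Control arrays.

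**Figure D2:**
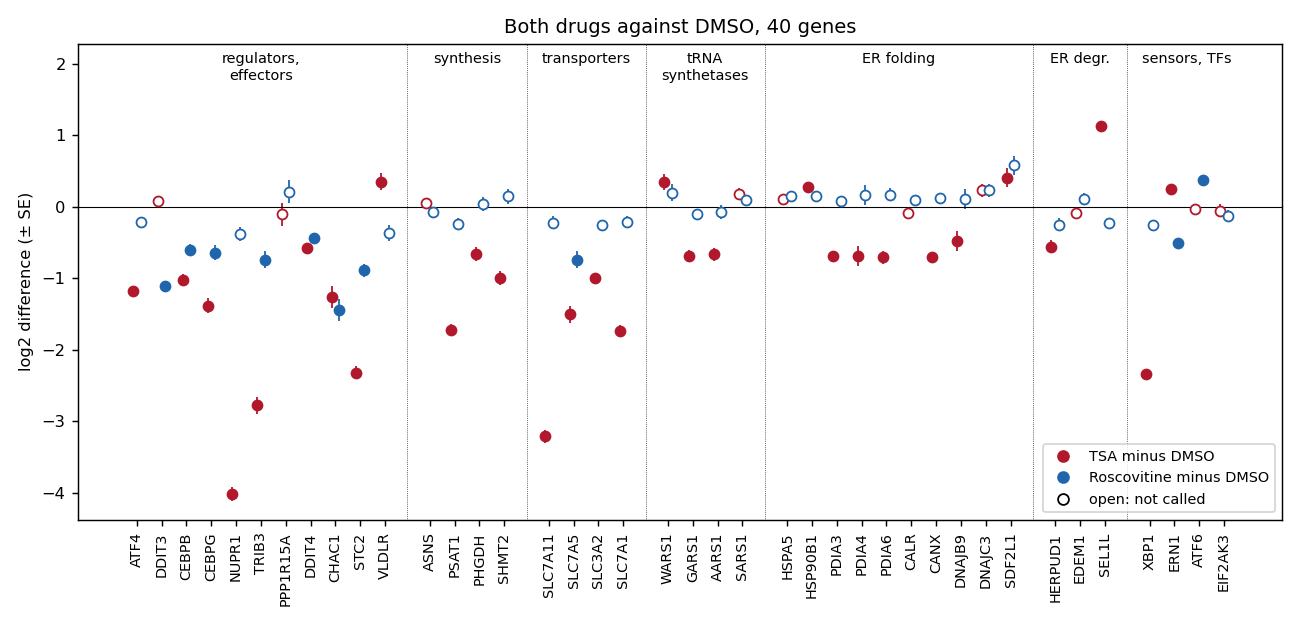
Log2 difference ± SE (vertical axis) of the 40 genes, ordered by role, for TSA minus DMSO (red) and Roscovitine minus DMSO (blue), 2 arrays per group. Filled points are called and open points are not. TSA values reach -4.01 for NUPR1 and 1.13 for SEL1L, while all 10 genes of the ER folding arm lie above 0 and uncalled with Roscovitine.

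All 4 amino acid transporters fell with TSA. SLC7A11, which exchanges glutamate for cystine and so feeds glutathione synthesis, had signals of 373 and 340.1 in TSA, against 3485 and 3378 in DMSO. The groups did not overlap and TSA cells kept 10.4% (-3.21 ± 0.09, adjusted p = 1.71e-08), with -2.85 and -1.58 at its other probe sets. Its heavy-chain partner SLC3A2 was at 1790.5 and 1698 in TSA and 3504 and 3504 in DMSO, a smaller fall (-1.0006 ± 0.07). The cationic transporter SLC7A1 (-1.73 ± 0.08) and the large neutral transporter SLC7A5 (-1.50 ± 0.12) lay between them.

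Amino acid synthesis was split. PSAT1, an enzyme of serine synthesis, was at 2501 and 2482 in TSA, against 8199 and 8349 in DMSO (-1.73 ± 0.08, adjusted p = 1.81e-07). PHGDH (-0.66 ± 0.10), the first enzyme of that path, and SHMT2 (-0.99 ± 0.10), which passes serine carbon into mitochondrial folates, fell as well. ASNS, asparagine synthetase and a classical ATF4 target, did not follow them: its signals were 5639 and 5488 in TSA and 5209 and 5539 in DMSO. The arrays of both groups overlapped (0.050 ± 0.06, 95% interval -0.093 to 0.19, adjusted p = 0.604), though after quantile normalization ASNS was called higher (0.22). Of the 5 genes of the ATF4 arm with a CEBP-ATF element, CHAC1, AARS1, SLC7A1 and SLC3A2 fell and ASNS was not called. HERPUD1, outside the arm, holds the element too and fell.

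Among the 4 tRNA synthetases, GARS1 fell, with 4312 and 4305 in TSA against 6749 and 7109 in DMSO (-0.68 ± 0.07, adjusted p = 4.72e-05). AARS1 fell by a like amount (-0.67 ± 0.09) and WARS1 rose (0.34 ± 0.11, adjusted p = 0.0369), a call lost without any 1 of the TSA, DMSO or si-Control arrays. SARS1 was not called (0.18 ± 0.08), but its probe sets disagreed, the second being lower in TSA (-2.15). SARS1 was called lower by the mean of both (-0.98) and higher after quantile normalization (0.37).

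**Figure D3:**
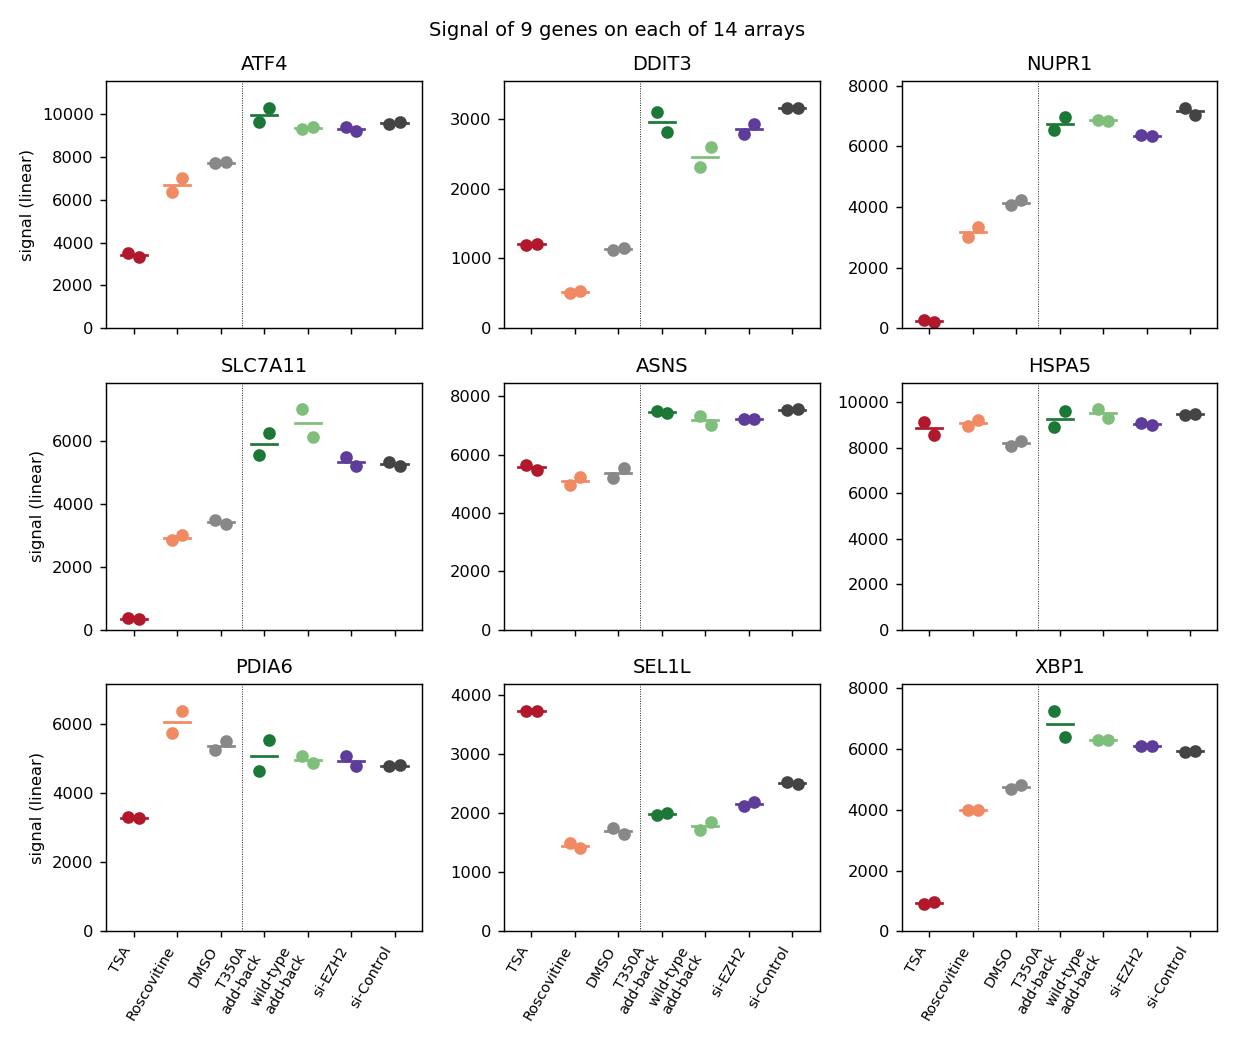
Signal (linear scale from 0) of 9 genes on each of the 14 arrays, in 7 groups of 2. Points are arrays and bars are group means; scales differ between genes. NUPR1, SLC7A11 and XBP1 are near the floor of their panels in TSA, ASNS and HSPA5 are close to DMSO there, and SEL1L is highest in TSA.

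In the ER folding arm the change with TSA was smaller and not of 1 sign. HSPA5 (BiP), which holds unfolded chains and keeps the sensors inactive, was at 9156 and 8551 in TSA, against 8092 and 8312 in DMSO. TSA arrays were slightly higher but the gene was not called (0.11 ± 0.07, 95% interval -0.043 to 0.26, adjusted p = 0.247). It was called higher by the mean of its 2 probe sets (0.23, adjusted p = 0.0380 by limma) and after quantile normalization (0.15, adjusted p = 0.0462 by limma). PDIA6, a disulfide isomerase, fell to 3298 and 3267 in TSA, against 5249 and 5498 in DMSO (-0.71 ± 0.09, adjusted p = 0.000160), and its other 3 probe sets gave -0.72 to -0.63. The isomerase PDIA3 (-0.69 ± 0.07) and the lectin chaperone CANX (-0.71 ± 0.07) fell by nearly the same amount. PDIA4 (-0.69 ± 0.14) did so with TSA arrays that differed between themselves (3496 and 2513, against 4736 and 4857 in DMSO).

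DNAJB9, a co-chaperone of HSPA5, fell (-0.48 ± 0.14, adjusted p = 0.0220), a call lost without DMSO replicate 2 or either TSA array. HSP90B1 (GRP94), the ER member of the HSP90 family, rose: its signals were 3531 and 3611 in TSA and 2949 and 2951 in DMSO (0.27 ± 0.07, adjusted p = 0.00774). SDF2L1, which works with HSPA5 and its co-chaperones, rose by 0.40 ± 0.13, a call lost without any 1 of the TSA, DMSO, si-EZH2 or si-Control arrays. CALR (-0.089 ± 0.07) and DNAJC3 (0.23 ± 0.09) were not called, although DNAJC3 was called higher by the mean of its probe sets (0.37) and under 3 other settings. Of the 4 genes with an ERSE in this arm, HSP90B1 rose, CANX fell, and HSPA5 and CALR were not called.

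Outside both arms XBP1 fell, by the brighter of its 2 probe sets, and SEL1L rose. XBP1, the factor whose spliced form drives ER expansion, had signals of 894 and 959.9 in TSA, against 4692 and 4821 in DMSO. That is 19.5% of the DMSO level (-2.34 ± 0.07, adjusted p = 2.48e-08). The other XBP1 probe set, with a mean signal of 42.8, had the opposite sign (0.41), and the mean of both was called at -0.97. SEL1L, the scaffold of an ER ubiquitin ligase complex, was at 3714 and 3727 in TSA and 1753 and 1643 in DMSO, 2.19 times as high (1.13 ± 0.07, adjusted p = 9.47e-07). Its other 3 probe sets gave 0.81 to 1.26. HERPUD1, which helps assemble ER degradation complexes, fell (-0.56 ± 0.09), and EDEM1, a mannosidase-like degradation factor, was not called (-0.088 ± 0.08).

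Of the sensors, EIF2AK3 was at 1168 and 1123 in TSA and 1164 and 1218 in DMSO, with overlapping arrays, and was not called (-0.056 ± 0.09, adjusted p = 0.684). ERN1 rose slightly, with 954 and 903 in TSA against 786 and 772 in DMSO (0.25 ± 0.07, adjusted p = 0.0165). That call was lost without either DMSO array or TSA replicate 1, and another ERN1 probe set had the opposite sign (-0.0897). By the mean of its probe sets ERN1 was not called (0.098). ATF6 was not called (-0.037 ± 0.07) and its second probe set was higher in TSA (0.45).

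The summed signal of the 8 LNCaP markers also differed, at 14500.3 to 15177.4 in TSA, against 40821.7 to 42197.9 in DMSO, and the secreted protease KLK2 among them was at 53.5 and 46.1 in TSA and 3962 and 4167 in DMSO. Markers of androgen-independent prostate lines summed to 3546.82 to 3902.55 in TSA and 3124.95 to 3292.33 in DMSO (7 of 7 measured). Fibroblast and endothelial markers summed to 2500.85 to 2576.97 in TSA and 2237.76 to 2265.54 in DMSO (5 of 5), and leukocyte markers to 273.13 to 300.45 in TSA and 295.21 to 307.48 in DMSO (3 of 4), with PTPRC under 100 on every array. A mean signal over 200 was reached by 3 of the androgen-independent line markers, 2 of the fibroblast and endothelial markers and 1 leukocyte marker (207). The part of all these markers in the TSA result was not tested.

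Further genes of these pathways, 89 measured of 101 listed, showed with TSA 21 rises, 36 falls and 32 without a call (median -0.14). Of all genes 42.1% were called in this comparison and 21.5% were called lower. Of 26 other ATF4 amino acid and stress genes 4 rose and 14 fell (median -0.55), and of 13 other cytosolic tRNA synthetases 2 rose and 7 fell. Largest among the falls were the glutamine transporter SLC38A1 (-3.31 ± 0.07), the ER membrane transcription factor CREB3L4 (-3.12 ± 0.17), the AP-1 repressor JDP2 (-2.89 ± 0.09) and UBE2J1 (-2.23 ± 0.08), a ubiquitin-conjugating enzyme of ER degradation. Of 26 other ER folding and secretion genes 9 rose and 8 fell, of 11 other degradation genes 4 rose and 3 fell, and of 13 sensors, proteases and eIF2 kinases 2 rose and 4 fell. The largest rises were the oxidase ERO1B (1.87 ± 0.17), the ER membrane protein WFS1 (1.58 ± 0.09), ALDH1L2 (1.33 ± 0.20, a dim gene with 55.5 and 38.4 in TSA and 7.09 and 10.5 in DMSO) and the HSPA5 co-chaperone DNAJC1 (1.16 ± 0.06).

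Roscovitine lowered a part of the ATF4 arm and left the ER folding arm without a call. DDIT3, CHAC1, STC2, TRIB3, CEBPB, CEBPG and DDIT4 fell among the regulators and effectors, with SLC7A5 alone among the transporters and no enzyme or tRNA synthetase. Of the 40 genes 1 rose, 9 fell and 30 were not called against DMSO, where 2.78% of all genes were called and 2.21% were called lower. The median was -0.24 over the ATF4 arm (0 rose, 8 fell, 15 not called) and 0.15 over the ER folding arm (0 rose, 0 fell, 10 not called), against 0.00059 over all genes.

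DDIT3 had signals of 509.7 and 526 in Roscovitine, against 1126 and 1155 in DMSO. Roscovitine left 45.4% of it (-1.11 ± 0.08, adjusted p = 0.000578), and the call stood in each of the 14 fits without 1 array. CHAC1, which DDIT3 and ATF4 induce, was at 486 and 454 in Roscovitine and 1313 and 1296 in DMSO (-1.44 ± 0.15, adjusted p = 0.00372). STC2 was at 1064 and 1094 in Roscovitine, against 1976 and 2052 in DMSO (-0.89 ± 0.09, adjusted p = 0.00342). In each of these genes both Roscovitine arrays lay well below both DMSO arrays.

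TRIB3 (-0.74 ± 0.12, adjusted p = 0.0159), CEBPG (-0.64 ± 0.11), CEBPB (-0.61 ± 0.09) and DDIT4 (-0.44 ± 0.07) fell by less. TRIB3 was not called by the mean of its probe sets (-0.41), nor were the sensors ERN1 (-0.29) and ATF6 (0.16). By that mean SARS1 was called lower (-0.46). ATF4 itself had 6353 and 7021 in Roscovitine, against 7714 and 7749 in DMSO, lower on both arrays but not called (-0.21 ± 0.07, adjusted p = 0.174). NUPR1, with 3009 and 3341 in Roscovitine and 4053 and 4227 in DMSO, was likewise lower on both arrays and not called (-0.38 ± 0.10, adjusted p = 0.0828).

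SLC7A5 was at 195 and 257 in Roscovitine, against 369 and 402 in DMSO (-0.74 ± 0.12, adjusted p = 0.0179). The other 3 transporters had values between -0.25 and -0.21 and were not called. In the synthesis enzymes the log2 differences ran between -0.24 and 0.14, and in the tRNA synthetases between -0.11 and 0.20, none of them called.

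All 10 genes of the ER folding arm lay above 0 with Roscovitine, between 0.079 and 0.58, and none was called by limma, with 3 at an unadjusted p under 0.05. HSPA5 was at 8950.4 and 9207 in Roscovitine and 8092 and 8312 in DMSO (0.15 ± 0.07, adjusted p = 0.340). SDF2L1 came nearest to a call, with 2245 and 2707 in Roscovitine against 1641 and 1652 in DMSO (0.58 ± 0.13, adjusted p = 0.0586), and was called under 4 other settings. Both genes were higher on both Roscovitine arrays.

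Among the sensors, ERN1 fell with Roscovitine to 545 and 539.6, against 786 and 772 in DMSO (-0.51 ± 0.07, adjusted p = 0.00907), and ATF6 rose to 659.8 and 662, against 509.6 and 505 in DMSO (0.37 ± 0.07, adjusted p = 0.0270). Each had a further probe set of the opposite sign (0.34 for ERN1 and -0.0804 for ATF6). XBP1, with 3983 and 3988 in Roscovitine and 4692 and 4821 in DMSO (-0.25 ± 0.07, adjusted p = 0.121), and EIF2AK3, with 1101 and 1073 in Roscovitine and 1164 and 1218 in DMSO (-0.13 ± 0.09), were not called. Both XBP1 groups stood apart, lower in Roscovitine.

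The Roscovitine count rested on single arrays. Without DMSO replicate 1, DMSO replicate 2, Roscovitine replicate 1 and Roscovitine replicate 2 it was 3, 1, 4 and 5 genes lower and 0 higher in each, and with the 6 drug arrays alone it was 0, where DDIT3 had an adjusted p of 0.0501. Without both arrays that stood apart 7 genes were lower and 0 higher. Of the 89 further genes 5 fell and 0 rose, where 2.78% of all genes were called and 2.21% were called lower. The largest falls were JDP2 (-0.98 ± 0.09), the ATF4-related factor ATF5 (-0.91 ± 0.10) and the stress-induced SESN2 (-0.47 ± 0.10). CTH (-0.45 ± 0.06), which makes cysteine, and the amino acid transporter SLC38A2 (-0.37 ± 0.06) were the others.

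Set directly against Roscovitine, TSA gave 4 higher, 23 lower and 13 uncalled genes of the 40, with 43.1% of all genes called. The ATF4 arm had a median of -0.70 (2 higher, 15 lower, 6 not called) and the ER folding arm a median of -0.38 (0 higher, 5 lower, 5 not called), against -0.0044 over all genes. DDIT3 was higher in TSA: its signals were 1199 and 1207 in TSA, against 509.7 and 526 in Roscovitine (1.19 ± 0.08, adjusted p = 1.66e-06). SEL1L (1.35 ± 0.07), ERN1 (0.76 ± 0.07) and VLDLR (0.72 ± 0.12) were the other genes higher in TSA. NUPR1 (-3.63 ± 0.10), SLC7A11 (-2.99 ± 0.09), XBP1 (-2.09 ± 0.07) and TRIB3 (-2.04 ± 0.12) had the largest negative differences. By the mean of all probe sets XBP1 was at -1.04, TRIB3 at -1.23 and ERN1 at 0.39, all still called, and other probe sets gave 0.0040 for XBP1, -0.42 for TRIB3 and -0.43 and 0.85 for ERN1. CHAC1, with 554 and 513 in TSA and 486 and 454 in Roscovitine, was not called between the drugs, and the 95% interval of its difference ran over -0.17 to 0.52. PDIA6 (-0.88 ± 0.09), PDIA4 (-0.86 ± 0.14) and CANX (-0.83 ± 0.07) were lower in TSA. The call of DNAJB9 was lost without Roscovitine replicate 2, and that of HERPUD1 without TSA replicate 2 or Roscovitine replicate 2. By the mean of all probe sets HERPUD1 (-0.0799) and ATF6 (-0.073) were not called, SARS1 (-0.52) and CALR (-0.27) were called lower, and HSP90B1 (0.22) was called higher. Of the 89 further genes 18 were higher and 38 lower in TSA.

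Knockdown of EZH2 left these genes without a call. In si-EZH2 against si-Control limma called 0 of the 40, with 3 at an unadjusted p under 0.05 and 0.845% of all genes called. The log2 differences lay between -0.27 for CHAC1 and 0.35 for ERN1, and their 95% intervals between -0.61 and 0.54. Medians were -0.052 over the ATF4 arm and 0.082 over the ER folding arm, against 0.037 over all genes. ATF4 was at 9387 and 9191 in si-EZH2 and 9533 and 9622 in si-Control (-0.044 ± 0.07), and HSPA5 at 9083 and 9023 in si-EZH2 and 9448 and 9499 in si-Control (-0.065 ± 0.07). DDIT3 was at 2778 and 2920.1 in si-EZH2, against 3150.3 and 3160.4 in si-Control, lower on both arrays but not called (-0.15 ± 0.08, adjusted p = 0.539).

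ERN1 came nearest to a call on knockdown. Its signals were 1711 and 1641 in si-EZH2, against 1309.6 and 1319 in si-Control, and the groups did not overlap (0.35 ± 0.07, adjusted p = 0.0656). It was called without either wild-type add-back array and under 3 other settings, while the mean of its probe sets was 0.080. XBP1 was at 6109 and 6105 in si-EZH2 and 5892 and 5946 in si-Control (0.045 ± 0.07), and EIF2AK3 at 1516 and 1483 in si-EZH2 and 1279 and 1329 in si-Control (0.20 ± 0.09, adjusted p = 0.427). Among the 89 further genes CREB3L2, a relative of ATF6, rose (0.50 ± 0.09, adjusted p = 0.0372) and JDP2 fell (-0.55 ± 0.09, adjusted p = 0.0342).

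Returning EZH2 to knocked-down cells called 1 gene with the T350A form and 7 genes with the wild-type form. Of all genes 0.809% and 11.4% were called in these comparisons, and between the add-backs 0 of the 40 genes were called. In the T350A add-back against si-EZH2 only ERN1 rose, 0 fell and 39 were not called, where 0.809% of all genes were called. ERN1 had signals of 2352 and 2244 in the T350A add-back, against 1711 and 1641 in si-EZH2 (0.45 ± 0.07, adjusted p = 0.0219). The call stood in 7 of the 14 fits without 1 array and was lost without any 1 of the DMSO, si-Control or si-EZH2 arrays or T350A add-back replicate 1. It was lost too by the mean of its probe sets (0.43, adjusted p = 0.0637 by limma) and with the transfected arrays alone (adjusted p = 0.208 by limma). The other 39 log2 differences lay between -0.12 for SEL1L and 0.41 for DNAJB9. CHAC1 was at 2765 and 1966 in the T350A add-back and 1700.4 and 1876 in si-EZH2, with arrays far apart in the first group (0.38 ± 0.15, adjusted p = 0.338). Medians were 0.068 over the ATF4 arm, 0.037 over the ER folding arm and -0.0014 over all genes. Of the 89 further genes limma called 0, with 8 at an unadjusted p under 0.05. The sums of the androgen-independent line markers were 3957.61 to 4100.35 in the T350A add-back and 3667.06 to 3849.45 in si-EZH2.

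**Figure D4:**
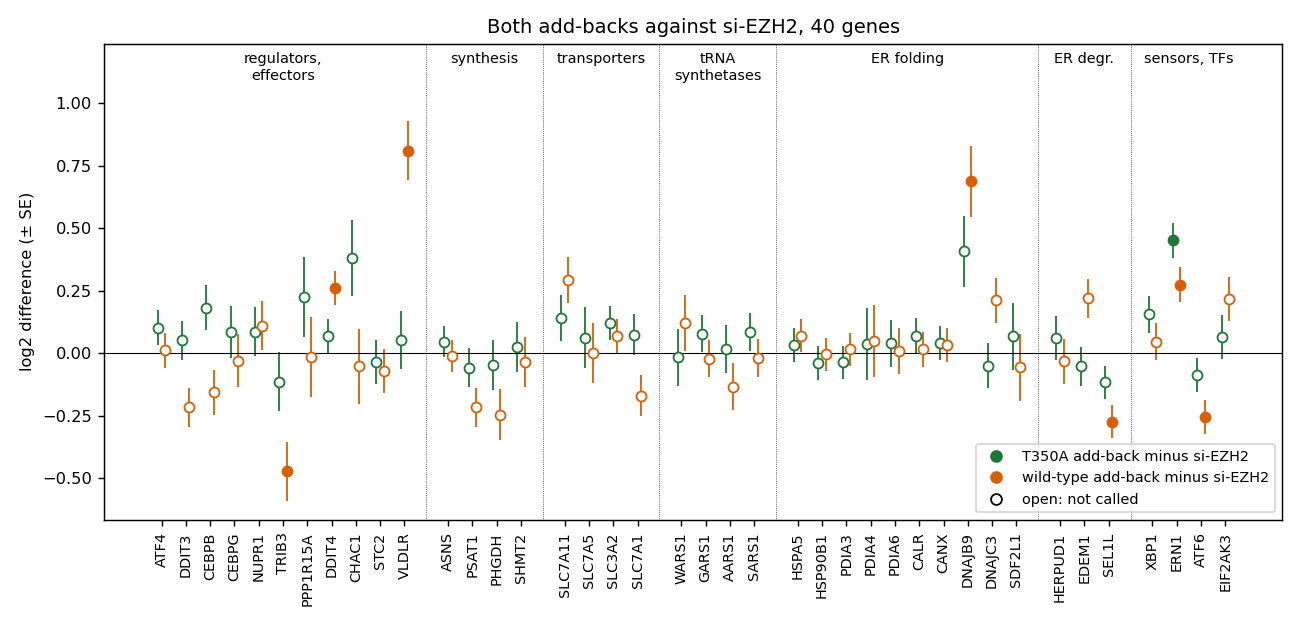
Log2 difference ± SE (vertical axis) of the 40 genes, ordered by role, for the T350A add-back minus si-EZH2 (green) and the wild-type add-back minus si-EZH2 (orange), 2 arrays per group. Filled points are called and open points are not. The points of both add-backs scatter around 0, and VLDLR, DNAJB9 and ERN1 stand highest.

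Wild-type EZH2 returned to si-EZH2 cells gave 4 rises, 3 falls and 33 genes without a call, where 11.4% of all genes were called. VLDLR had signals of 754 and 634 in the wild-type add-back, against 397 and 378 in si-EZH2. Both wild-type arrays lay above both si-EZH2 arrays (0.81 ± 0.12, adjusted p = 0.00457), and the call stood in each fit without 1 array. DNAJB9 was at 4341 and 3239 in the wild-type add-back and 2331 and 2317 in si-EZH2 (0.69 ± 0.14, adjusted p = 0.0168). It was higher on both arrays, though these differed between themselves, and lost the call without either si-EZH2 array or wild-type add-back replicate 1. ERN1 (0.27 ± 0.07, adjusted p = 0.0356) and DDIT4 (0.26 ± 0.07, adjusted p = 0.0422) rose by less.

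TRIB3 fell in the wild-type add-back, to 4291 and 5649, against 6719.6 and 6959 in si-EZH2 (-0.47 ± 0.12, adjusted p = 0.0327). SEL1L (-0.27 ± 0.07, adjusted p = 0.0313) and ATF6 (-0.26 ± 0.07, adjusted p = 0.0457) were the other falls. TRIB3, DDIT4, SEL1L, ERN1 and ATF6 each lost their call without any 1 of the DMSO, si-Control or si-EZH2 arrays or wild-type add-back replicate 1. With every array shifted to the same median the count was 5 higher and 0 lower, and with the transfected arrays alone VLDLR was the 1 gene called. By the mean of all probe sets ERN1 (0.19) and ATF6 (-0.18) were not called, SLC7A11 (0.52) was called higher and SARS1 (-0.27) lower. ATF4 (9308 and 9412 in the wild-type add-back and 9387 and 9191 in si-EZH2, 0.011 ± 0.07), HSPA5 (0.070 ± 0.07), XBP1 (0.045 ± 0.07) and EIF2AK3 (0.22 ± 0.09) were not called. The ATF4 arm had a median of -0.023 and the ER folding arm of 0.025, against -0.053 over all genes.

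Among the 89 further genes 5 rose and 7 fell in the wild-type add-back, where 11.4% of all genes were called. ERO1A, the oxidase that recharges the disulfide isomerases, had signals of 6058 and 4121 in the wild-type add-back, against 1325 and 1399 in si-EZH2 (1.86 ± 0.16, adjusted p = 0.000510). CREB3 (0.72 ± 0.12), ERO1B (0.65 ± 0.17) and the mannosidase EDEM2 (0.48 ± 0.12) rose as well. SLC43A1 (-0.79 ± 0.21), CREB3L4 (-0.73 ± 0.17), GADD45A (-0.50 ± 0.13) and JDP2 (-0.43 ± 0.09) had the largest falls. The LNCaP markers summed to 33322.5 to 39182.4 in the wild-type add-back and 43151 to 43243.6 in si-EZH2, and the androgen-independent line markers to 4682.22 to 5738.33 in the wild-type add-back and 3667.06 to 3849.45 in si-EZH2. Their part in these calls was not tested.

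Between the 2 add-backs, T350A minus wild-type, limma called 0 of the 40 genes, with 12 at an unadjusted p under 0.05 and 0.207% of all genes called. VLDLR was closest to a call. It had signals of 367 and 442 in the T350A add-back, against 754 and 634 in the wild-type add-back, without overlap (-0.76 ± 0.12, adjusted p = 0.0504). VLDLR was called under 5 other settings, and also once replicate 2 of either add-back was left out. Without wild-type add-back replicate 2, 5 genes were called: VLDLR, CEBPB, TRIB3, DNAJC3 and EDEM1. CHAC1 (0.43 ± 0.15, adjusted p = 0.223), TRIB3 (0.36 ± 0.12), CEBPB (0.34 ± 0.09) and DDIT3 (0.27 ± 0.08) had positive differences that did not pass. ERO1A was the 1 further gene called, lower in the T350A add-back at 1782 and 2137, against 6058 and 4121 in the wild-type add-back (-1.35 ± 0.16, adjusted p = 0.0192). The medians were 0.10 over the ATF4 arm, -0.023 over the ER folding arm and 0.063 over all genes.

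The control groups of both experiments differed in the ATF4 arm. This comparison, si-Control against DMSO, was added after the values were seen, and the groups differ in transfection, in time (60 h against 24 h) and in solvent, which cannot be told apart. Of the 40 genes 23 were higher, 1 was lower and 16 were not called, with 10.4% of all genes called. The ATF4 arm had a median of 0.49 (17 higher, 0 lower, 6 not called), the ER folding arm a median of -0.057 (1 higher, 1 lower, 8 not called), and all genes a median of -0.0087. DDIT3 was at 3150.3 and 3160.4 in si-Control, against 1126 and 1155 in DMSO, 2.77 times as high (1.46 ± 0.08, adjusted p = 3.86e-05). TRIB3 (0.81 ± 0.12), NUPR1 (0.79 ± 0.10), SARS1 (0.79 ± 0.08), CEBPG (0.74 ± 0.11) and SLC3A2 (0.64 ± 0.07) were higher in si-Control too.

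ASNS, called with neither drug, was higher in si-Control at 7524 and 7564, against 5209 and 5539 in DMSO (0.49 ± 0.06, adjusted p = 0.00165), but was not called by the mean of its 2 probe sets (0.41, adjusted p = 0.266 by limma). HSPA5 was at 9448 and 9499 in si-Control and 8092 and 8312 in DMSO and was not called (0.21 ± 0.07, adjusted p = 0.0910), though called after quantile normalization (0.21, adjusted p = 0.0355 by limma). SDF2L1 was the gene that was lower (-0.58 ± 0.13, adjusted p = 0.0244), and DNAJB9 (0.56 ± 0.14) the chaperone that was higher. ERN1 (0.74 ± 0.07), ATF6 (0.57 ± 0.07), SEL1L (0.56 ± 0.07), HERPUD1 (0.40 ± 0.09) and XBP1 (0.31 ± 0.07) were higher, and EIF2AK3, at 1279 and 1329 in si-Control and 1164 and 1218 in DMSO, was not called (0.13 ± 0.09). By the mean of all probe sets HERPUD1 had the opposite sign (-0.0751, not called), its second probe set being at -0.55, while SEL1L (0.34) and ERN1 (0.43) were called at lower values and HSP90B1 was called lower (-0.24). Of the 24 calls 13 stood in each fit without 1 array. ATF4, CHAC1, PSAT1, SLC7A1, WARS1, AARS1, DNAJB9, SDF2L1, HERPUD1 and XBP1 lost theirs without any 1 of the si-Control or DMSO arrays, and GARS1 without either si-Control array or DMSO replicate 1. Of the 89 further genes 13 were higher and 2 lower, where 10.4% of all genes were called. NIBAN1 led them (1.79 ± 0.10), at 399 and 363 in si-Control and 95.8 and 101 in DMSO.

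Across all 7 groups the genes of these pathways stood in different orders. The levels of ERN1 ran from 545 and 539.6 in Roscovitine through 786 and 772 in DMSO, 954 and 903 in TSA, 1309.6 and 1319 in si-Control, 1711 and 1641 in si-EZH2 and 2130.0 and 1933 in the wild-type add-back to 2352 and 2244 in the T350A add-back. Neighbours in that order called apart were Roscovitine and DMSO, TSA and DMSO, and the wild-type add-back and si-EZH2. Each of these calls was lost by the mean of all ERN1 probe sets, so the order is that of the brightest probe set. The add-backs were not called apart (0.18 ± 0.07, adjusted p = 0.260 by limma), nor was si-EZH2 from si-Control. TSA and si-Control were not tested against each other. DDIT3 was lowest in Roscovitine, not called between TSA and DMSO, and at 2311 or more on all 8 transfected arrays. HSPA5 ran from 8092 to 9701 over the 14 arrays by its brighter probe set, though the mean of its probe sets was called higher with TSA against DMSO.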

How the data were processed

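Total RNA of 14 LNCaP samples was hybridised to Affymetrix arrays, 1 array per sample, after RNeasy isolation and biotin labelling per the labels' protocols. The deposited table holds intensity values summarized by the authors for 54613 probe sets on a linear scale. The software, scaling and background steps are not given in the sources used here. A second table repeats part of these values and was not used.

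The platform annotation gave 41091 probe sets 1 symbol (41037 updated through the gene identifier), 1801 several and 11721 none. Those with 1 symbol gave 19775 genes, each represented by its probe set with the highest mean signal. Signals were taken as log2(value + 16) and fitted with limma 3.58.1 in R 4.3.3 (lmFit, contrasts.fit, eBayes, 1 model of 7 group means, 7 residual and 2.1 prior degrees of freedom), with Benjamini-Hochberg adjustment over all genes in each of 8 contrasts. The steps were tested on simulated data. The 40 genes, the lists of further genes and the contrasts were chosen with earlier results of these data known. Named were members by role, with signals for the most changed of each role and for ATF4, DDIT3, HSPA5, XBP1 and EIF2AK3, and at most 4 further genes per contrast and direction; 1 more further gene in Roscovitine, and signals of other members, were chosen after their values were seen. The lists were given no set test.

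Replicate numbers were not used to pair the samples, since nothing says that a number marks a shared day. Replicate differences correlated at -0.269 to 0.28 between groups, apart from 0.702 for Roscovitine and the T350A add-back. These correlations cannot settle whether same-numbered samples shared a day. Alternatives were a minimum mean signal of 50, quantile normalization, equal array medians, a pseudocount of 1 or 64, averaging a gene's probe sets, fitting the drug or transfection arrays separately, the replicate number as a block, eBayes with trend and robust options, and leaving out each array or both deviating ones. Promoters came from RefSeq GRCh38.p14. Tables were made with pandas 2.3.3 and figures with matplotlib 3.10.9 in Python 3.11.15.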

Additional observations from a re-analysis of the deposited data

How the results depend on the processing

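Calls with TSA were the steadiest: of 30 called genes against DMSO 25 were called in every other setting and without each array in turn, and of 27 against Roscovitine 24. Of 10 Roscovitine calls against DMSO 0 stood in every setting, of 7 wild-type add-back calls 1, of 1 T350A add-back call 0, and of 24 calls of si-Control against DMSO 12. Leaving out each array in turn gave 1 to 11 called genes for Roscovitine, 0 to 1 for si-EZH2, 0 to 1 for the T350A add-back and 1 to 12 for the wild-type add-back, the 12 without wild-type add-back replicate 2. It gave 0 to 5 for T350A minus wild-type, the 5 without that same array, and 13 to 24 for si-Control minus DMSO. Fitting each experiment on its own arrays brings fewer samples into the fit. It called 0 genes for Roscovitine, 1 for the wild-type add-back and 0 for the T350A add-back, and the cause was not tested. An intensity trend with a robust prior gave 16 for Roscovitine. For si-EZH2 minus si-Control 1 gene (ERN1) was called with a minimum signal, with pseudocount 64 and with the trend. For T350A minus wild-type 1 gene (VLDLR) was called with a minimum signal, quantile normalization, equal medians, pseudocount 64, the trend, without T350A add-back replicate 2, and without both deviating arrays. The mean of all probe sets gave 0 for the T350A add-back, and with it HERPUD1 in si-Control minus DMSO reversed to -0.0751, since its second probe set was at -0.55.

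After quantile normalization the TSA minus DMSO medians were -0.8947 (ATF4 arm) and -0.1649 (ER folding arm), and those of TSA minus Roscovitine -0.5242 and -0.3071. For TSA minus Roscovitine the ATF4 arm median was -0.6076 with pseudocount 64, and -0.5815 and -0.2957 were the medians of both arms without both deviating arrays. Without each array in turn they ran over -0.7513 to -0.5815 and -0.4975 to -0.2957. For the T350A add-back minus si-EZH2 the medians ran over 0.0321 to 0.1298 (ATF4 arm) and -0.0523 to 0.0988 (ER folding arm), the ER folding arm at -0.0523 also without both deviating arrays, so its sign is not settled. For T350A minus wild-type they ran over 0.0422 to 0.1389 and -0.0832 to 0.0419. They were 0.0386 and -0.0855 with equal medians, and the first was 0.0422 without both deviating arrays. With the mean of all probe sets the si-Control minus DMSO medians were 0.4132 and -0.1208. Where no value shows it, the cause was not tested.

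Over the whole table the other settings called 1 to 942 genes for Roscovitine (549 in the text), 5 to 318 for si-EZH2 (167), 254 to 2884 for the wild-type add-back (2246), 4 to 368 for the T350A add-back (160) and 0 to 121 for T350A minus wild-type (41). Fits without 1 array are not in these ranges, and for T350A minus wild-type the highest of them lay above 121. Called higher and lower for Roscovitine were 111 and 438 genes, and 247 and 473 after quantile normalization. No scaling moved the median of all genes by over 0.1.

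Nothing says whether a replicate number marks a shared day. With the replicate block limma called 30 genes for TSA minus DMSO, 10 for Roscovitine minus DMSO, 27 for TSA minus Roscovitine, 0 for si-EZH2, 1 for the T350A add-back, 5 for the wild-type add-back, 0 for T350A minus wild-type and 23 for si-Control minus DMSO, and DDIT4 (0.26) and ATF6 (-0.26) in the wild-type add-back and DNAJB9 (0.56) in si-Control minus DMSO were no longer called.

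With 2 arrays per group the number of arrays sets the precision, and 0 calls do not show equal levels. No group was large enough for a search for outlying arrays.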
